A study of Mus musculus with 8 samples.

Results

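The 9 genes *Hoxb1* to *Hoxb9* were followed in the whole brains of newborn mice whose mothers had or had not drunk cadmium (Cd). The genes were chosen by name, as the rows of the read count table whose Ensembl identifiers carry these 9 symbols, and all 9 were found among the 49585 genes of that table, of which 27077 had at least 1 read. They were put forward because of the difference between the doses in these same brains, so their dose differences are given as a description and support nothing beyond it. RNA was sequenced from 8 female pups of the B × C cross, in which a C57BL/6J ("B") mother was mated to a CAST/EiJ ("C") father. The control group was 4 pups whose dams drank water with 0 ppm CdCl2, and the exposed group was 4 pups whose dams drank water with 50 ppm CdCl2 before mating and until the litter was born. Each of the 8 pups came from a different litter, all were labelled as postnatal day 1, and the poly(A) RNA of 1 homogenized brain went into each library. A whole brain pools many regions and cell types, so that fewer cells of a type and less RNA per cell cannot be told apart in any value given here.

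*Hox* genes encode homeodomain transcription factors that give cells a position along the head-to-tail axis. Their order on the chromosome follows the order in which they are used, so that genes at the 3′ end of a cluster, such as *Hoxb1* and *Hoxb2*, are active from the hindbrain backwards, whereas genes at the 5′ end, such as *Hoxb8* and *Hoxb9*, are used in the spinal cord and trunk. Retinoic acid made by *Aldh1a2* opens the 3′ end of the cluster, CDX factors act on its middle and 5′ part, and Polycomb proteins hold it silent in cells further forward, where the forebrain and midbrain form.

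On GRCm38 the 9 genes lie on the plus strand of chromosome 11 within 96.8 kb. *Hoxb9* (ENSMUSG00000020875, 96271457 to 96276595) comes first and *Hoxb1* (ENSMUSG00000018973, 96365752 to 96368256) comes last. The table of RefSeq promoters, each running from 250 bases before to 50 bases after the start of a gene, held 3 members, and these are shown because they belong to a gene of the 5′ part that was almost silent in control brains (*Hoxb8*), a gene of the middle of the cluster (*Hoxb4*) and the gene at its 3′ end (*Hoxb1*). Capitals mark letters of TTTATG, the sequence read by CDX factors, of TATAAA, and of TGATNNAT, a joint site of HOX and PBX proteins, on either strand.
*Hoxb8*, chr11:96281655-96281954, plus strand, GRCm38.p6: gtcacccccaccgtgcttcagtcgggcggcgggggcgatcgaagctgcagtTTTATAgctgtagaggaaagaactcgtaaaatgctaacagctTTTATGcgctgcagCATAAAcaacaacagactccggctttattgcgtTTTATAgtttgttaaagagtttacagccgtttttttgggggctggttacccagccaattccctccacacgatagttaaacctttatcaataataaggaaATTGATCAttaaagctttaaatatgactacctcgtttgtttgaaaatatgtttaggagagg
*Hoxb4*, chr11:96318017-96318316, plus strand, GRCm38.p6: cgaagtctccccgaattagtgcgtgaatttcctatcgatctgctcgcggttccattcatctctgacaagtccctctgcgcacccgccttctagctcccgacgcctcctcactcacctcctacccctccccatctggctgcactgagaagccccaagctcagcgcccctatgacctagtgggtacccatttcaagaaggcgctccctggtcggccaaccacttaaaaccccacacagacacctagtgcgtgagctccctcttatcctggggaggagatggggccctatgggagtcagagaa
*Hoxb1*, chr11:96365508-96365807, plus strand, GRCm38.p6: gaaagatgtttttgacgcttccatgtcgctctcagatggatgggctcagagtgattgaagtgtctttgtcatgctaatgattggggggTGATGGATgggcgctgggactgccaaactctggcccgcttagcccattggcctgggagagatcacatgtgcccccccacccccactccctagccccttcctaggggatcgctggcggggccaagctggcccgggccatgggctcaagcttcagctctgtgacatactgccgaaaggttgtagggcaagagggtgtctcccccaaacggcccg

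The 3 promoters differed in these letters. That of *Hoxb8* held 2 matches to TTTATG, 2 to TATAAA and 1 to TGATNNAT, none of which overlapped another. Over the 32851 promoters of the table, at least 1 match was found in 11.9%, 13.6% and 8.85%, respectively. The promoter of *Hoxb1* held 1 match to TGATNNAT, and that of *Hoxb4* held none of the 3 sequences but 1 match to AGGTCA, the half-site of retinoid receptors, which 16.3% of all promoters contained. A pair of such half-sites in the same direction, 5 bases apart, was in none of the 3. G and C made up 42.3% of the *Hoxb8* promoter, and 14.9% of all promoters had less, against 58.0% for *Hoxb4* and 59.3% for *Hoxb1*. A match of letters does not show that a factor was bound.

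The cluster also encodes microRNAs. *Mir196a-1*, upstream of *Hoxb9*, gives miR-196a, known for cutting the *Hoxb8* mRNA, and *Mir10a*, upstream of *Hoxb4*, gives miR-10a. Their mature forms are shown with the seed, bases 2 to 8, in capitals. Below them stands the stretch of the *Hoxb8* 3′ UTR most complementary to miR-196a, with the bases that form Watson-Crick pairs in capitals.
miR-196a-5p, chr11:96265187-96265208, plus strand, GRCm38.p6: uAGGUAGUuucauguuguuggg
miR-10a-5p, chr11:96317186-96317208, plus strand, GRCm38.p6: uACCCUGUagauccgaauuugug
*Hoxb8* 3′ UTR, chr11:96284888-96284909, plus strand, GRCm38: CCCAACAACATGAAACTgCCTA

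The *Hoxb8* stretch paired with 21 of the 22 bases of miR-196a, and the remaining base formed a G:U pair. In every other member the best window paired with at most 14 of the 22 bases. The rows of *Mir196a-1* and *Mir10a* were listed at 0 in all 8 libraries, but libraries made from poly(A) RNA do not capture mature microRNAs, so their levels were not measured.

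The libraries held 22916434 to 30708087 reads on genes. A count of 3 reads, the most that a count of 0 allows, corresponded to 0.098 to 0.132 CPM (reads scaled by library size with TMM normalization) here, a limit that covers counting error only. 3 libraries stood apart in the reads of the cluster. 0 ppm replicates 1 and 2 held 1 and 12 reads on the 9 genes, against 396 and 675 in 0 ppm replicates 3 and 4, and 50 ppm replicate 1 held 3203, against 985, 653 and 753 in the other exposed brains. The same 2 control brains had the lowest summed level of 24 marker genes of hindbrain and spinal cord, and the summed level, the shares, the members' fold changes and the gene lists are also given without them.

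Summed over the 9 genes, the level was 0.0341, 0.446, 12.9 and 26.1 CPM in the 0 ppm brains and 112, 34.6, 23.3 and 33.2 CPM in the 50 ppm brains. The groups overlapped, since 0 ppm replicate 4 lay above 50 ppm replicate 3. The means were 9.89 ± 12.4 CPM (SD, n = 4) and 50.9 ± 41.3 CPM (SD, n = 4). Without 50 ppm replicate 1 the exposed mean fell to 30.4 CPM, and without 0 ppm replicates 1 and 2 the control mean rose to 19.5 CPM. Without 0 ppm replicate 4 the control mean was 4.47 CPM.

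Of the 9 members, 7 had a count in enough libraries to be tested, and *Hoxb1* and *Hoxb9* did not. All 7 had a log2 fold change (50 ppm over 0 ppm) above 0, as had 49% of all 23113 genes tested, with a median of 2.33 beside a median of -0.0032 over all genes. In edgeR's quasi-likelihood test, 3 of them, *Hoxb8*, *Hoxb7* and *Hoxb6*, were called at an adjusted p under 0.05, where 0.0173% of all genes tested were called, which is 4 genes including these 3. DESeq2 called 2 of them, *Hoxb8* and *Hoxb7*, and 0.0862% of the 20871 genes it tested. The same 3 had every exposed brain above every control brain, as had 1.19% of all genes. At an unadjusted p under 0.05, all 7 were higher at 50 ppm, as were 2.31% of all genes. Since the members were chosen on this contrast, and only members with reads could be tested, nothing is read from these counts.

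**Figure D1:**
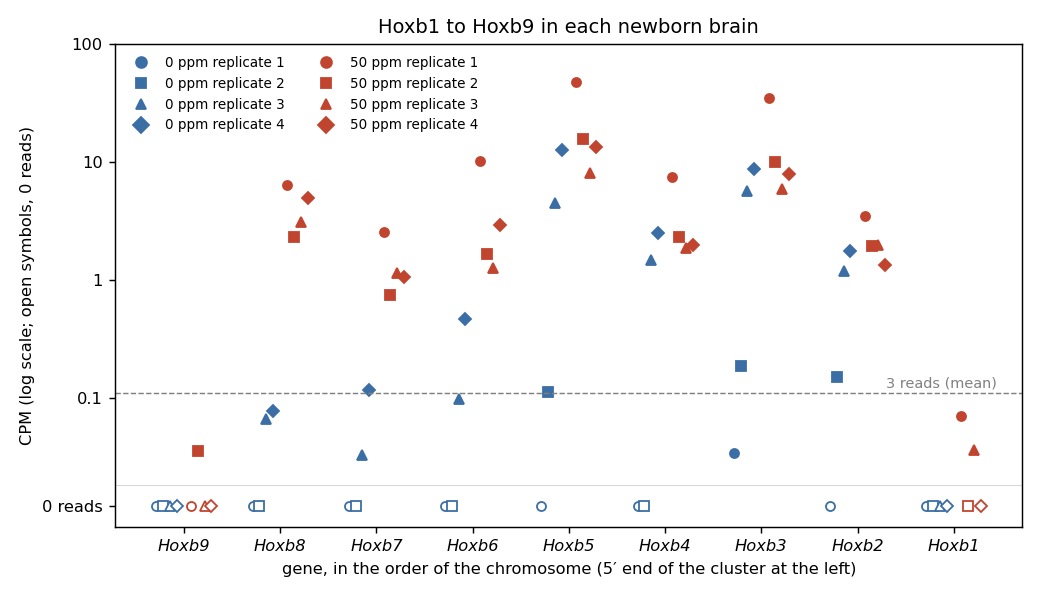
CPM of *Hoxb9* to *Hoxb1* in each brain on a log scale, with 0 ppm brains in blue, 50 ppm brains in red, a symbol for each replicate, and open symbols for 0 reads; the dashed line is the mean level of 3 reads. For *Hoxb8*, *Hoxb7* and *Hoxb6* all 4 exposed brains sit above all 4 control brains, whereas for *Hoxb5* to *Hoxb2* the exposed brains share their range with 0 ppm replicates 3 and 4.

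The 5′ genes separated the doses. *Hoxb8* (ENSMUSG00000056648, 96281905 to 96285315), which acts in the spinal cord and in blood cell precursors and is needed for normal grooming in mice, had 0, 0, 2 and 2 reads in the 0 ppm brains and 180, 65, 86 and 111 reads in the 50 ppm brains. In CPM these were 0, 0, 0.0653 and 0.0774 against 6.31, 2.28, 3.07 and 4.90. Every control brain was at or under 3 reads, and the lowest exposed brain lay 29.5-fold above the highest control brain. The mean at 50 ppm was 38.7-fold the mean level that 3 reads make in the control libraries. Since the control counts were not all 0, this ratio is not a strict lower bound. The means at 0 and 50 ppm were 0.0357 ± 0.0415 and 4.14 ± 1.82 CPM (SD, n = 4 each). The fitted log2 fold change was 6.69, with a standard error (SE) of 0.52, a value that depends on the prior count because of the zeros. Among the 3 genes that separated the doses, *Hoxb8* varied least among the exposed brains, with 2.77-fold between the lowest and the highest.

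*Hoxb7* (ENSMUSG00000038721, 96286623 to 96290162), a trunk gene used in the spinal cord and in the kidney ducts, had 0, 0, 1 and 3 reads in the 0 ppm brains and 72, 21, 32 and 24 in the 50 ppm brains. These were 0, 0, 0.0327 and 0.116 CPM against 2.53, 0.737, 1.14 and 1.06 CPM. The controls again stayed within 3 reads, and the least of the exposed brains was 6.35-fold above the highest of them. The mean at 50 ppm was 12.8-fold the mean level of 3 reads in the control libraries, again not a strict lower bound. The fitted log2 fold change was 5.10 (SE 0.64).

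For *Hoxb6* (ENSMUSG00000000690, 96292476 to 96301569), which is expressed in the spinal cord and the lateral plate mesoderm, 0, 0, 3 and 12 reads were counted in the 0 ppm brains and 291, 47, 35 and 66 in the 50 ppm brains. Its CPM were 0, 0, 0.098 and 0.465 against 10.2, 1.65, 1.25 and 2.91. Here 0 ppm replicate 4 stood above the 3-read level, and the lowest exposed brain, 50 ppm replicate 3, was 2.69-fold above it. The spread within the exposed group was wide, 8.17-fold, because of 50 ppm replicate 1. The log2 fold change was 4.86 (SE 0.78), and it was 3.79 without that brain and 3.88 without 0 ppm replicates 1 and 2, where *Hoxb6* was no longer called in either case.

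*Hoxb5* to *Hoxb2* overlapped between the doses. *Hoxb5* and *Hoxb4* had more than 3 reads in 2 of the 4 control brains, and *Hoxb3* and *Hoxb2* in 3 of the 4, with 5 and 4 reads in 0 ppm replicate 2. *Hoxb5* (ENSMUSG00000038700, 96303336 to 96306121), used around the passage from hindbrain to spinal cord and in the neural crest of the gut, had 0, 0.112, 4.44 and 12.5 CPM in the 0 ppm brains and 47.6, 15.6, 8.10 and 13.2 CPM in the 50 ppm brains. The level in 0 ppm replicate 4 lay above that in 50 ppm replicate 3, and 0 ppm replicates 1 and 2 had 0 and 3 reads. The group means were 4.27 ± 5.89 and 21.1 ± 17.9 CPM (SD, n = 4 each), a log2 fold change of 2.33 (SE 0.75) that was 1.34 without 0 ppm replicates 1 and 2 and 1.55 without 50 ppm replicate 1.

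*Hoxb4* (ENSMUSG00000038692, 96318267 to 96321638), whose front limit lies in the caudal hindbrain and which also acts in blood stem cells, had 0, 0, 1.47 and 2.48 CPM in the 0 ppm brains against 7.47, 2.32, 1.855 and 1.99 CPM in the 50 ppm brains. Only 50 ppm replicate 1 exceeded 0 ppm replicate 4. The log2 fold change was 1.81 (SE 0.69).

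*Hoxb3* (ENSMUSG00000048763, 96323326 to 96347930), a gene of the caudal hindbrain that takes part in the specification of motor neurons, had 0.0341, 0.186, 5.65 and 8.71 CPM in the 0 ppm brains and 34.8, 10.04, 5.89 and 7.81 CPM in the 50 ppm brains. 2 of the 4 exposed brains lay below 0 ppm replicate 4. Its log2 fold change was 2.02 (SE 0.72). Of its exon length, 52.9% lies opposite exons of the antisense gene *Hoxb3os*. The strand setting of the counting is not given in the sources used here. Reads of the 2 genes may therefore be mixed, or left uncounted where their exons overlap.

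*Hoxb2* (ENSMUSG00000075588, 96350525 to 96354012), which acts with *Hoxb1* in facial motor neurons of the hindbrain, had 0, 0.149, 1.18 and 1.74 CPM in the 0 ppm brains and 3.44, 1.93, 1.96 and 1.32 CPM in the 50 ppm brains. The lowest exposed brain, 50 ppm replicate 4, lay below 0 ppm replicate 4. The log2 fold change of 1.51 (SE 0.57) was the smallest of the 7, and 27.3% of the exon length of *Hoxb2* lies opposite *Hoxb3os*.

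The 2 genes at the ends of the cluster were at or under 3 reads in every brain. *Hoxb1*, which sets the identity of a single hindbrain segment in the embryo, had 2 reads in 50 ppm replicate 1, 1 read in 50 ppm replicate 3 and 0 reads in the other 6 brains. *Hoxb9*, a gene of the thoracic trunk, had 1 read in 50 ppm replicate 2 and 0 reads in the other 7. No difference between the doses was detectable at this depth for either gene.

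When 0 ppm replicates 1 and 2 were left out of the fit, the log2 fold changes from *Hoxb8* to *Hoxb2* along the chromosome were 5.77, 4.18, 3.88, 1.34, 0.81, 1.04 and 0.59. *Hoxb8* and *Hoxb7* were still called. All 7 values were lower than with the 8 brains, and the step between *Hoxb6* and *Hoxb5* stood in both sets of values. Leaving out 50 ppm replicate 1 in their place gave 1.07 for *Hoxb4*, 1.13 for *Hoxb3* and 1.20 for *Hoxb2*. Leaving out 0 ppm replicate 4, the control with the most *Hoxb* reads, gave 3.76 for *Hoxb5*, 2.74 for *Hoxb4*, 2.87 for *Hoxb3* and 2.25 for *Hoxb2*.

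Levels of different genes were compared as CPM per kb of exon. At 50 ppm the order was *Hoxb5* (7.58 ± 6.43), *Hoxb3* (3.44 ± 3.18), *Hoxb6* (2.04 ± 2.14), *Hoxb8* (1.57 ± 0.689), *Hoxb4* (1.33 ± 1.06), *Hoxb7* (0.885 ± 0.513) and *Hoxb2* (0.620 ± 0.258) CPM per kb (SD, n = 4), followed by *Hoxb1* (0.0114) and *Hoxb9* (0.0034). Over the 2001 bases of its exons that no other gene overlaps, *Hoxb3* would stand at 7.31 and *Hoxb5*, over 2686 bases, at 7.86 CPM per kb, if all their reads fell there. The ranges of neighbours in this order overlapped from *Hoxb5* to *Hoxb2*, whereas every exposed brain had more *Hoxb2* than any had *Hoxb1*. Within a brain, *Hoxb5* lay above *Hoxb3* and *Hoxb3* above *Hoxb6* in 4 of 4 exposed brains. *Hoxb6* exceeded *Hoxb8* in 1 of 4, and *Hoxb8* exceeded *Hoxb4* in 2 of 4, so that these 3 had no fixed order. At 0 ppm the order of the means was *Hoxb5* (1.53 ± 2.11), *Hoxb3* (0.857 ± 1.00), *Hoxb4* (0.385 ± 0.472) and *Hoxb2* (0.220 ± 0.239), and *Hoxb6* (0.0716 ± 0.112), *Hoxb7* (0.0241 ± 0.0355) and *Hoxb8* (0.0135 ± 0.0158 CPM per kb, SD, n = 4) were lowest among the members with reads.

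The make-up of the cluster's reads differed between the doses. The 5′ genes *Hoxb6* to *Hoxb9* made up 0 of 1 read and 0 of 12 reads in 0 ppm replicates 1 and 2, too few to give a share, with 95% Wilson intervals reaching 79.3% and 24.2%. Their share was 1.52% (0.696 to 3.27%) in 0 ppm replicate 3 and 2.52% (1.58 to 3.996%) in 0 ppm replicate 4. In the exposed brains it was 17.0% (15.7 to 18.3%), 13.6% (11.6 to 15.9%), 23.4% (20.3 to 26.8%) and 26.7% (23.7 to 30.0%). These intervals cover counting error only, and the exposed brains also differed among themselves beyond them. Over the 4 exposed brains the mean was 20.2 ± 5.96% (SD, n = 4). Over 0 ppm replicates 3 and 4 it was 2.02%. Entering 0 ppm replicates 1 and 2 as 0% gave a control mean of 1.01 ± 1.23%, or 0.505% without 0 ppm replicate 4. Those last 2 values rest on brains with too few reads to give a share. 50 ppm replicate 1, which had the most reads on the cluster, did not have the highest share of 5′ genes.

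**Figure D2:**
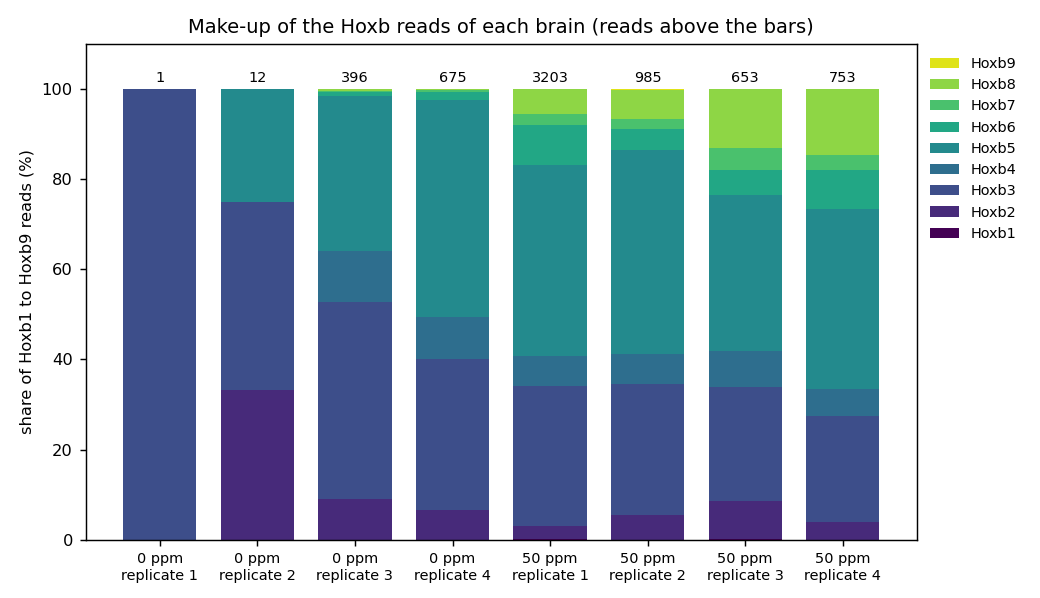
Share of each gene, in percent, among the reads of *Hoxb1* to *Hoxb9* in each brain, with the number of reads above the bar. The shares of *Hoxb6*, *Hoxb7* and *Hoxb8* at the top together reach 13.6 to 26.7% in the 50 ppm brains and 1.52 and 2.52% in 0 ppm replicates 3 and 4, while 0 ppm replicates 1 and 2 rest on 1 and 12 reads.

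Relative to *Hoxb5* in the same brain, *Hoxb8* had 1.47 and 0.617 reads per 100 *Hoxb5* reads in 0 ppm replicates 3 and 4, and 13.3, 14.6, 37.9 and 37.0 in the 50 ppm brains. The exposed brains all lay above both controls in this ratio. By contrast, *Hoxb3* had 127 and 69.4 reads per 100 *Hoxb5* reads in these controls and 73.1, 64.4, 72.7 and 59.0 in the 50 ppm brains. *Hoxb4* had 33.1 and 19.8 against 15.7, 14.9, 22.9 and 15.0, so that neither ratio was raised at 50 ppm. The most 5′ member with more than 3 reads was *Hoxb5* in 0 ppm replicate 3 and *Hoxb6* in 0 ppm replicate 4, and it was *Hoxb8* in all 4 exposed brains. It was *Hoxb3* in 0 ppm replicate 2, and 0 ppm replicate 1 had none.

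In the alignment to the C genome, *Hoxb8* and *Hoxb6*, the 2 members paired with an identifier there, had the same count as in the B alignment in every brain, 446 and 454 reads in all. Their log2 fold changes were 6.70 (SE 0.53) and 4.87 (SE 0.80), and *Hoxb6* was not called among the 19847 genes tested there.

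Other annotated genes of the cluster carried few reads. *Hoxb13*, the most 5′ gene of the cluster, had 1 read in 50 ppm replicate 3 and 0 in the other 7 brains. The antisense gene *Hoxb5os* had 0, 0, 4 and 1 reads in the 0 ppm brains and 21, 4, 3 and 3 in the 50 ppm brains, a log2 fold change of 2.57 (SE 0.89) with overlapping groups. *Hoxb3os* had 0, 3, 14 and 11 reads against 21, 6, 6 and 1, a log2 fold change of 0.31 (SE 0.73), so that 3 of 4 exposed brains lay below both 0 ppm replicates 3 and 4. *Gm11536*, antisense within the *Hoxb3* gene, had 0, 0, 0 and 1 reads against 4, 1, 2 and 6. The pseudogene *Gm11539* never exceeded 1 read, and *Gm53*, *Gm27898* and *Gm27605* were listed at 0 throughout. None of these genes was called.

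The genes next to the cluster were not used to choose the members. The 10 nearest protein-coding genes with enough reads on the *Hoxb13* side lay 28.9 to 359 kb from *Hoxb13*, and the 10 on the *Hoxb1* side lay 96.3 to 662 kb from *Hoxb1*. None of the 20 was called by edgeR (adjusted p of 0.999 for each) and 0 had an unadjusted p under 0.05, where 3.75% of all genes tested had one. DESeq2 and the other fits to the B alignment also called 0 of the 20. Their median log2 fold change was 0.026, and 0.034 without 0 ppm replicates 1 and 2. On the *Hoxb13* side the lowest value was that of *Gngt2*, -0.57 (SE 0.50), and the highest that of *B4galnt2*, 1.43 (SE 1.05), which had at most 3 reads in any brain. On the *Hoxb1* side the values ran from -0.08 (SE 0.08) for *Cbx1*, a heterochromatin protein gene, to 0.20 (SE 0.17) for *Copz2*, a coat protein gene of vesicles. *Copz2* was the 1 neighbour whose exposed brains (2.51 to 2.91 CPM) all lay above its control brains (2.01 to 2.46 CPM), and groups that do not overlap in either direction were found for 2.09% of all genes.

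**Figure D3:**
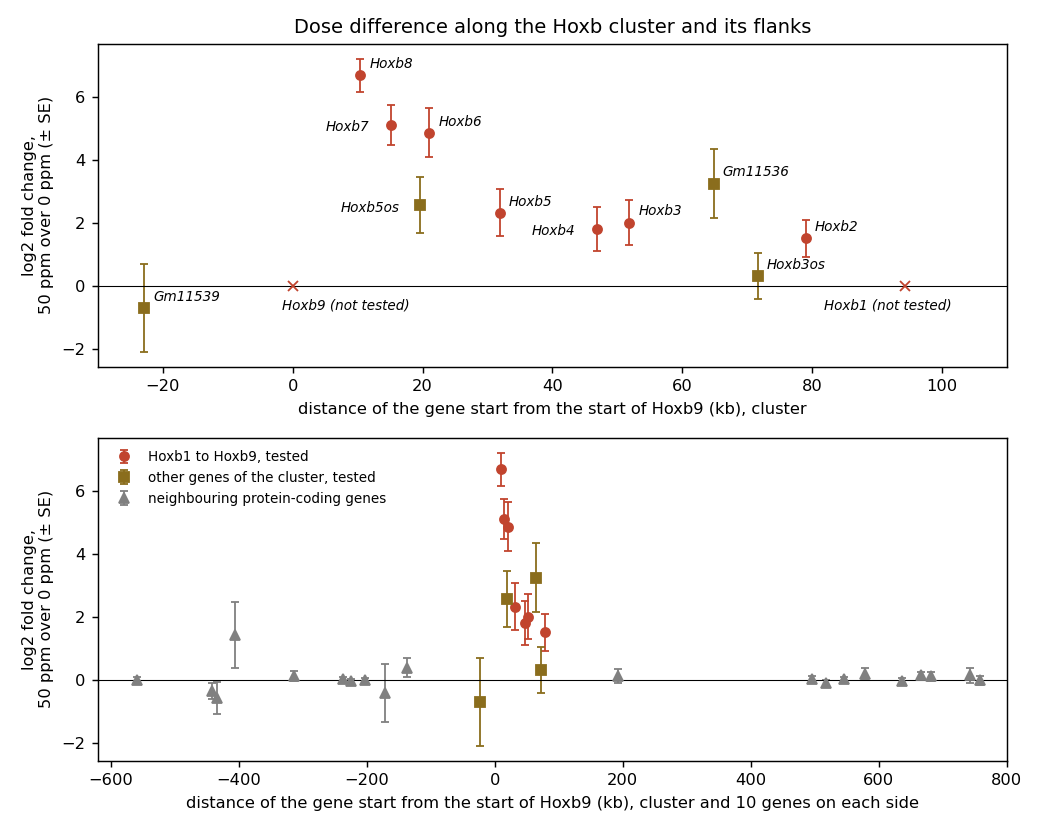
Log2 fold change (50 ppm over 0 ppm, bars are the SE) against the distance of each gene's start from that of *Hoxb9* in kb, for the cluster (top) and for the cluster with 10 genes on each side (bottom). The values run from 6.69 at *Hoxb8* to 1.51 at *Hoxb2*, and the 20 neighbours have a median of 0.026.

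Of the genes known to control the cluster, none of the 62 tested in 4 lists was called by edgeR, with 6 at an unadjusted p under 0.05, where 3.75% of all genes had one, and a median log2 fold change of -0.05. Without 0 ppm replicates 1 and 2 the median was -0.04. DESeq2 called 1 of them, *Aldh1a2*. The list of retinoic acid and CDX genes and other direct inducers held 16 tested genes, of which 7 had a log2 fold change above 0 (median -0.03). *Aldh1a2*, the enzyme that makes retinoic acid in the embryo and in the meninges, had 17.6, 15.8, 16.3 and 16.6 CPM in the 0 ppm brains and 24.6, 22.1, 20.1 and 23.2 CPM in the 50 ppm brains. All exposed brains lay above all control brains, with a log2 fold change of 0.44 (SE 0.10, adjusted p = 0.299 in edgeR). *Cyp26b1*, which breaks retinoic acid down, had 45.2 ± 7.30 and 60.2 ± 5.10 CPM (SD, n = 4), with a log2 difference of 0.42 (SE 0.10, adjusted p = 0.42 in edgeR). *Cdx1*, *Cdx2*, *Cdx4* and *Cyp26c1* never exceeded 3 reads in a brain.

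The cofactors of the PBX and MEIS families, which bind DNA together with HOX proteins, numbered 9 tested genes with 3 above 0 and a median of -0.08. *Meis1* had 22.8 ± 5.32 CPM at 0 ppm and 32.3 ± 4.51 CPM at 50 ppm (SD, n = 4), which gave a log2 fold change of 0.51 (SE 0.14) with every exposed brain above every control brain but an adjusted p of 0.789 in edgeR. *Pbx2* had a log2 fold change of -0.16 (SE 0.08), with every exposed brain (32.6 to 37.5 CPM) below every control brain (37.8 to 41.7 CPM). The log2 fold changes of *Meis1* and *Pbx2* were 0.31 and -0.22 without 0 ppm replicates 1 and 2. Among 27 Polycomb genes, which keep *Hox* clusters silent, 5 lay above 0 and 22 below, with a median of -0.05. *Phc2*, at -0.16 (SE 0.07), and *Ezh2*, the histone H3 methyltransferase of Polycomb, at -0.19 (SE 0.09), had the smallest p-values of that list, and neither passed the adjusted threshold in edgeR. *Cbx6* never exceeded 3 reads. The 10 trithorax genes, which keep active *Hox* genes on, had 2 above 0 and 8 below (median -0.07), with *Kdm6b* at -0.26 (SE 0.11) and *Men1* at -0.11 (SE 0.08).

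Marker genes of the hindbrain and spinal cord, the regions where *Hoxb* genes are normally active, moved with the cluster. Of 23 tested markers, 0 were called by edgeR, 9 were higher at an unadjusted p under 0.05 and 0 were lower, where 2.31% of all genes were higher in this way, and their median log2 fold change was 0.46. Without 0 ppm replicates 1 and 2, the median was 0.23, with 6 of 24 markers higher at an unadjusted p under 0.05 beside 2.24% of all genes. *Prph*, a filament of peripheral and motor neurons, had 6.11 ± 3.37 CPM at 0 ppm and 13.7 ± 2.50 CPM at 50 ppm (SD, n = 4), which gave a log2 fold change of 1.16 (SE 0.28). *Glra1*, the glycine receptor subunit of hindbrain and spinal cord, had 1.19 ± 1.09 and 3.26 ± 0.716 CPM, giving a log2 fold change of 1.42 (SE 0.41). Its groups overlapped, with 2.71 CPM in 0 ppm replicate 3 and 2.63 and 2.64 CPM in 50 ppm replicates 2 and 3. The log2 fold changes of *Prph* and *Glra1* were 0.66 and 0.68 without 0 ppm replicates 1 and 2. Summed over the 24 markers of the list, the level was 96.2, 101.9, 151 and 145 CPM in the 0 ppm brains and 199, 179, 153 and 169 CPM in the 50 ppm brains. The groups did not overlap, but the highest control and the lowest exposed brain (replicate 3 of each dose) lay close together, and 0 ppm replicates 1 and 2 were lowest, as they were for *Hoxb2* to *Hoxb5*. *Mnx1*, a motor neuron marker of the list, had 0 reads in 6 of the 8 brains and was not tested.

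**Figure D4:**
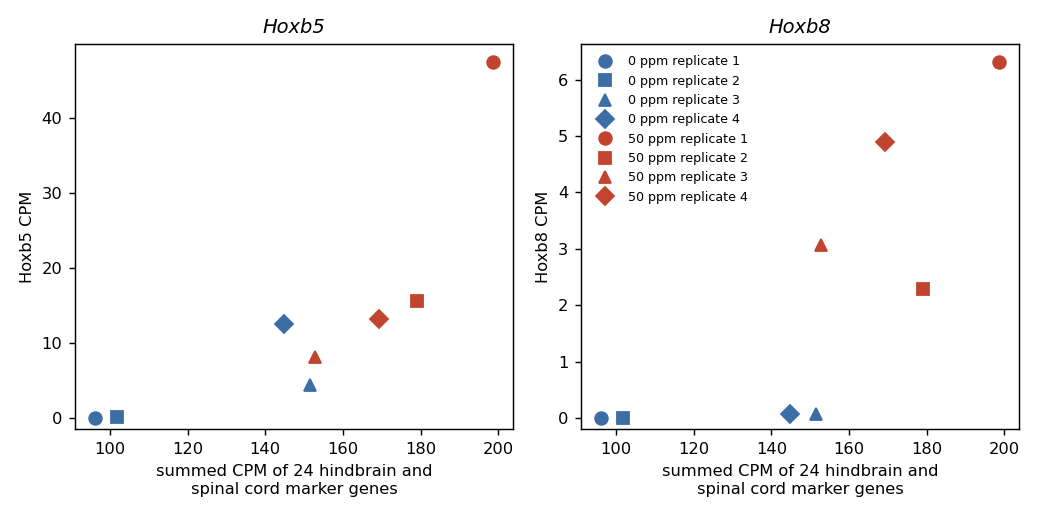
CPM of *Hoxb5* (left) and *Hoxb8* (right) against the summed CPM of 24 hindbrain and spinal cord marker genes in each brain, with a symbol for each replicate, 0 ppm in blue and 50 ppm in red. 0 ppm replicates 1 and 2 are lowest on both axes, with markers summed at 96.2 to 151 CPM at 0 ppm and 153 to 199 CPM at 50 ppm.

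With the mean log2 CPM of 21 of the markers as a further term in the fit, the log2 fold changes of *Hoxb8*, *Hoxb7* and *Hoxb6* were 5.59, 4.22 and 3.13, and 1 of the 3, *Hoxb8*, was still called. Those of *Hoxb5*, *Hoxb4*, *Hoxb3* and *Hoxb2* turned to -0.11, -0.26, -0.25 and -0.14, each smaller than its SE. The score and the dose move together in these brains, so the 2 terms of this fit share part of their information.

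**Figure D5:**
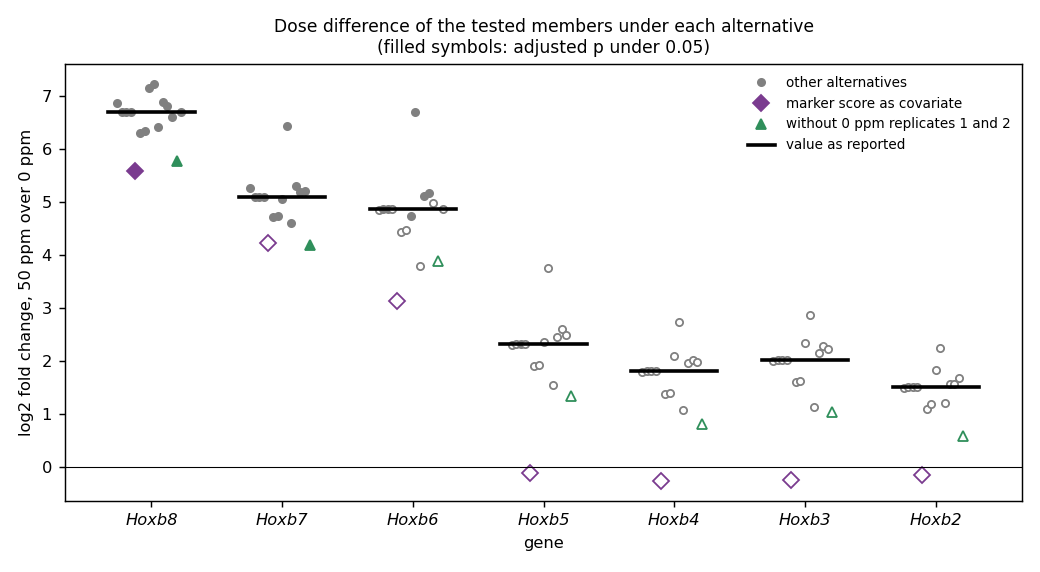
Log2 fold change (50 ppm over 0 ppm) of the 7 tested members under each alternative, with a black line for the value as reported and filled symbols for an adjusted p under 0.05. With the marker score as a covariate (purple diamonds) *Hoxb5* to *Hoxb2* sit between -0.26 and -0.11 and *Hoxb8* at 5.59.

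Markers of other tissues were read in the same way, and none of them was called by edgeR. Of 8 tested markers of peripheral nerve and ganglion, 8 lay above 0 (median 0.39), with summed levels of 17.5 to 27.5 CPM at 0 ppm and 25.5 to 31.8 CPM at 50 ppm. *Calca*, a sensory neuropeptide, had a log2 fold change of 0.73 (SE 0.28), whereas *Pmp2* never exceeded 3 reads. Of 14 forebrain markers, 1 lay above 0 and 13 below (median -0.23). Their summed levels of 1415, 1372, 925 and 1108 CPM at 0 ppm and 1002 to 1224 CPM at 50 ppm overlapped, with 0 ppm replicates 1 and 2 highest. *Eomes* was at -0.60 (SE 0.20), with 35.8 CPM in 0 ppm replicate 2 and 16.7 to 17.5 CPM in the other controls. Without 0 ppm replicates 1 and 2 the medians of these lists were 0.34 and -0.03. The part of either list in the *Hoxb* values was not tested.

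Of 10 meningeal markers, 9 lay above 0 (median 0.12), and *Ptgds* (0.51, SE 0.11) and *Slc6a13* (0.32, SE 0.09) had the smallest p-values. Their summed levels did not overlap (743 to 870 CPM in controls, 903 to 1056 CPM in exposed brains). A large part of that sum was *Ptgds* alone, with 215 to 269 CPM in controls and 292 to 450 CPM in exposed brains. *Col1a2* and *Zic1*, also large parts of it, overlapped between the doses. The paper counts *Ptgds* among the genes of the myelin transcriptome. Of 10 microglial markers, 7 lay above 0 (median 0.09), with *P2ry12* at 0.43 (SE 0.16) and *Csf1r* at 0.23 (SE 0.09), summed at 141 to 177 and 157 to 194 CPM. Of 9 blood markers, 4 lay above 0 (median -0.08), with *Slc4a1* at 0.43 (SE 0.43), summed at 131 to 314 and 103 to 407 CPM. Of 10 markers of skeletal muscle and cartilage, 6 lay above 0 (median 0.07), with *Matn1* at 1.103 (SE 0.55) and *Myh8* at 0.39 (SE 0.21), summed at 25.4 to 32.7 and 22.3 to 30.2 CPM. The summed levels of the last 3 lists overlapped between the doses. Without 0 ppm replicates 1 and 2 the medians were 0.13 for meningeal, 0.03 for microglial, 0.05 for blood and 0.07 for muscle and cartilage markers. The part of these lists in the *Hoxb* values was not tested.

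Among the 18 *Hox* genes of the other 3 clusters in the same groups of paralogs, 8 were tested, 0 were called by edgeR and 4 were higher at an unadjusted p under 0.05 (median log2 fold change 1.60), where 2.31% of all genes were. Without 0 ppm replicates 1 and 2 the median was 0.64. *Hoxc4* had 0, 3, 83 and 81 reads in the 0 ppm brains and 280, 166, 89 and 77 in the 50 ppm brains, and *Hoxc5* had 0, 1, 25 and 24 against 113, 73, 35 and 42, so 0 ppm replicates 1 and 2 were lowest for these genes too. *Hoxd8* went the other way, with 9, 9, 7 and 7 reads against 6, 0, 7 and 1 (log2 fold change -1.12, SE 0.63). *Hoxd1* was at 0.17 (SE 0.94). The 10 genes not tested never exceeded 3 reads in a brain. *Hoxa5* and *Hoxa6* were among them, listed at 0 in all 8 libraries. The paper, however, amplified both by qRT-PCR and reported them higher at 50 ppm, in a set of samples that included these brains. A listed 0 is thus not read as absence of the mRNA, and the reason for these zeros was not tested.

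The genes whose log2 CPM over the 8 brains followed *Hoxb8* and *Hoxb5* most closely were looked for among 14592 genes outside the *Hox* clusters with a mean of at least 1 CPM. Among the 10 nearest to *Hoxb8* were *Slc24a2*, *Aldh1a2*, *Bcas1*, *Hcls1*, *Il33*, *Kank1*, *Slc35d1*, *Ggnbp1* and *Slc25a34*, these 9 with Pearson's r of 0.913 to 0.947 (0.877 to 0.947 without the 2 brains farthest from the median). *Bcas1*, a protein of new oligodendrocytes, had 7.61, 8.71, 12.3 and 11.2 CPM in the 0 ppm brains and 23.3, 20.3, 15.5 and 19.2 CPM in the 50 ppm brains. The 8 brains fall into the 2 doses in their *Hoxb8* level, so r is high for any gene that separates the doses.

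The 10 nearest to *Hoxb5* were *Ppp1r1c*, *Lamp5*, *Mab21l2*, *Cacng5*, *Syt2*, *Rbks*, *Slc6a5*, *Pax8*, *Tmem255a* and *Arhgap6*, with r of 0.959 to 0.986 (0.572 to 0.915 without the 2 farthest brains). *Slc6a5*, the glycine transporter of hindbrain and spinal cord neurons, had 0.239, 2.38, 27.0 and 24.8 CPM in the 0 ppm brains and 56.1, 34.6, 21.0 and 32.7 CPM in the 50 ppm brains, and *Pax8*, a factor of hindbrain and spinal cord interneurons, had 0.375, 0.223, 1.89 and 2.94 against 7.30, 2.35, 2.07 and 2.47 CPM. No gene was in both lists. These 8 points share the libraries and the doses, and r is given as a description.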

How the data were processed

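The authors deposited the counts of reads per gene in the brains of 8 newborn B × C females, without normalization. They trimmed the initial bases, aligned single-end reads of strand-specific poly(A) libraries with STAR to the B (GRCm38) and C genomes, and counted them with htseq-count. Tool versions and the strand setting are not given in the sources used here. Reads of genes that overlap on opposite strands may therefore be mixed or left uncounted. Each library held 22916434 to 30708087 counted reads.

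As in the study's methods, genes at 0 in over 2/3 of the libraries were removed. TMM-normalized counts were fitted with glmQLFit and glmQLFTest of edgeR 4.0.16 (R 4.3.3), with treatment as the only term. Adjustment of p-values followed the Benjamini-Hochberg procedure across the genes that passed the filter, and called means an adjusted p under 0.05. The SE is the log2 fold change divided by the square root of F. Within a dose, all 12 pairs of brains differed beyond sampling noise (chi-square 8.67 to 21.1 per degree of freedom). Log2 CPM used a prior count of 2. Alternatives were DESeq2 1.42.0, its size factors in edgeR, no filter, at least 10 counts in at least 4 libraries, a marker score as covariate, the C genome, and leaving out libraries. The code was tested on simulated data in which 200 genes were changed by 1.5 log2 units, and 99% of them were recovered. Of the genes called there, 11.2% had not been changed, more than the threshold of 0.05 allows for. Genes with almost no reads in only 1 of the doses were not among those changed.

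Positions come from GENCODE M21 on GRCm38, and promoters and microRNAs from RefSeq (GRCm38.p6). Gene tables name 49326 of the 49585 identifiers. Members and the 13 gene lists were chosen with earlier results of these data known. The marker *Drgx* had no row. Named were all members, the other genes of the cluster, the neighbours with the lowest and highest value on each side, the 2 genes of each list with the smallest p, and the 10 genes most like *Hoxb8* and *Hoxb5*. Some single genes that this rule names are not reported here. *Mnx1*, *Hoxd8*, *Hoxd1*, *Col1a2*, *Zic1* and the genes of lists at or under 3 reads were named after their values were seen. Plots were made in matplotlib 3.10.9 (Python 3.11.15).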

Additional observations from a re-analysis of the deposited data

Results flagged for a closer look

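In 4 of the 21 groups of 4 brains looked at, 1 brain lay further from the others than Dixon's critical value of 0.829 allows, a limit that chance passes in about 0.05 of such groups. It was 50 ppm replicate 1 each time, as the highest of the exposed brains. The values were 34.8 CPM for *Hoxb3*, 7.47 CPM for *Hoxb4*, 112 CPM for the 9 *Hoxb* genes together and 0.737 CPM for the antisense gene *Hoxb5os*. These groups share reads and libraries, so they are not independent of each other.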

How the results depend on the processing

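The count of all genes called was 4, and it was 18 with DESeq2, 52 without a filter on low counts, 2 with a minimum of 10 counts in 4 or more libraries, 7 with the marker score as covariate, 2 in the alignment to the C genome and 7 without 0 ppm replicates 1 and 2, an alternative added after the data had been seen. It ran from 2 to 20 when 1 library was left out, with 20 reached without 0 ppm replicate 3, 8 without 50 ppm replicate 3, and 2 without replicate 1 or 2 of the controls or 50 ppm replicate 4. The cause of these shifts was not tested. Of the *Hoxb* members, 3 were called, and 1 with the covariate. *Hoxb8* was called in 15 of 15 alternatives (log2 fold change 5.59 to 7.23), *Hoxb7* in 13 of 14 (4.18 to 6.43, lost with the covariate), *Hoxb6* in 6 of 15 (3.13 to 6.69) and *Hoxb5* in 1 of 14, without a filter. Leaving out replicate 1 or 2 of the controls, or 1 or 4 of the exposed brains, ended the call of *Hoxb6*. With the covariate, *Hoxb5*, *Hoxb4*, *Hoxb3* and *Hoxb2* turned to -0.11, -0.26, -0.25 and -0.14. Of the regulator genes 0 were called, and 1 with DESeq2 (*Aldh1a2*) and 1 without a filter (*Cyp26b1*), and of the 20 neighbours 0 in every alternative fitted to the B alignment. Counting *Hoxb5* among the 5′ genes raised their share to 60.7% at 50 ppm and 27.8% at 0 ppm. Reads per kb of exon left both shares within 1 SD. The 0 ppm shares in these 2 comparisons include replicates 1 and 2, which had too few reads to give a share. No paired analysis was possible because the labels give no replicate numbers, and those used here only follow the order of the samples. With 4 brains per dose and 1 to 3203 *Hoxb* reads per brain, differences in *Hoxb1* and *Hoxb9* could not be measured.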
